A study of Mus musculus with 8 samples.

Results

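Expression of 10 genes of the unfolded protein response and the integrated stress response was examined in lungs of LPS-challenged mice with and without tangeretin. The genes were taken by symbol, as known members of these pathways, from the 24584 genes of the expression tables. They were Hspa5, Xbp1, Herpud1 and Dnajb9 of endoplasmic reticulum (ER) folding and degradation, and Atf4, Ddit3, Trib3, Asns, Chac1 and Sesn2 of the ATF4 branch. Lung RNA of 4 LPS samples and 4 LPS + Tan samples was sequenced. The mice were male ICR animals aged 6 to 8 weeks, an outbred stock, with the genotype entered as widetype in the sample labels. Both groups received LPS from Escherichia coli O111:B4 by intraperitoneal injection at 5 mg/kg, and lungs were collected 12 h later. The LPS + Tan group also received tangeretin, a flavone of citrus peel, by the same route at 50 mg/kg and 30 min ahead of LPS. No untreated lungs and no lungs given tangeretin alone are among the 8 samples, so the values compare 2 LPS-treated groups and show no response to LPS itself. The labels do not say whether each sample was 1 mouse, and the p-values measure the spread between these samples, which may be partly technical.

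Misfolded protein in the ER is sensed by IRE1, ATF6 and PERK. IRE1 splices the Xbp1 mRNA, and the XBP1 protein made from it, together with cleaved ATF6, raises the transcription of chaperones and of the degradation machinery. PERK and the other eIF2alpha kinases phosphorylate this translation factor, which slows protein synthesis but favours translation of ATF4, a transcription factor for amino acid supply, redox defence and, through CHOP, cell death. In lung these pathways are prominent in cells that secrete much protein, such as alveolar type 2 cells and plasma cells, and they are engaged in inflammatory injury. Gene-level counts measure mRNA and cannot show Xbp1 splicing or ATF4 translation. In whole lung, fewer cells of a type and less RNA per cell cannot be told apart.

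Sequence elements of this pathway were found in the promoters of 5 of the 10 genes, and they are shown because they tie these genes to their known regulators. RefSeq windows from 250 bases before to 50 bases after the gene start (GRCm38.p6) were searched on both strands, and all 10 genes had one. The ER stress response element (ERSE), bound by ATF6 and XBP1, was written as CCAAT, any 9 bases and CCACG. It occurred in 39 of 32851 windows (0.119%), and 1 of the 10 genes, Hspa5, had it. The C/EBP-ATF response element (CARE), bound by ATF4, was searched as the core TGATGNAAN. It was present in 1299 windows (3.95%), those of Herpud1, Trib3, Asns and Chac1 included. The core of the XBP1 element UPRE, TGACGTGG, was present in 222 windows (0.676%) and in none of the 10 genes. The stretches below are printed 5′ to 3′ on the strand of the gene, with the element in capitals, and positions count from the gene start, with -1 the base just before it. An opposite-strand element is the reverse complement of the core.
Hspa5, ERSE, positions -65 to -47, chr2:34772005-34772063, plus strand: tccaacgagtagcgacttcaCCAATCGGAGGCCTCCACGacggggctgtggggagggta
Herpud1, CARE on the opposite strand, positions -113 to -105, chr8:94386296-94386344, plus strand: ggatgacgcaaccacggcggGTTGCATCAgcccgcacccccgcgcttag
Trib3, CARE on the opposite strand, positions 14 to 22, chr2:152344029-152344057, minus strand: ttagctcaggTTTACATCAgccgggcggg
Asns, CARE, positions -23 to -15, chr6:7693210-7693252, minus strand: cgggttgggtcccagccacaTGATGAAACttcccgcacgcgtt
Chac1, CARE on the opposite strand, positions -194 to -186, chr2:119351028-119351076, plus strand: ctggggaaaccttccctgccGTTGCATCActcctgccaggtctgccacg
These are matches of letters in a short window. They are no evidence of binding in these lungs, and the lack of a match in the other 5 genes covers only the window searched.

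The total of reads assigned to genes lay between 38895654 and 39931970 in the 8 samples. Every one of the 10 genes passed the filter on low counts, along with 15706 genes in all. Levels are given as CPM (each count as a share of the library, expressed per 1000000 counts) scaled by the TMM method, which corrects for library size and composition. The lowest count behind a value was 269 for Chac1 and the highest was 60066 for Hspa5, so the spread between samples, not depth, limited the precision.

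No difference between LPS + Tan and LPS passed a threshold in any of the 10 genes. The log2 fold changes ran from -0.31 for Trib3 to 0.15 for Dnajb9, with a median of -0.059, against a median of 0.0070 over all tested genes. At an unadjusted p below 0.05 in the quasi-likelihood test of edgeR, 0 of the 10 were called, where 5.12% of all tested genes were (804 of 15706, 451 higher and 353 lower). DESeq2 (4.41% of all genes called), limma-voom (5.16%) and the likelihood ratio test of edgeR (5.23%) also called 0 of the 10. Unadjusted edgeR p-values lay between 0.136 and 0.844, and adjusted ones between 0.928 and 0.997. The DEG definition in the methods of the study, which asks for a log2 fold change beyond 1 in either direction besides this p, called 0 of the 10 and 0.649% of all tested genes. In 0 of the 10 genes were all samples of one group above all samples of the other, which was the case for 2.73% of tested genes. At an adjusted p below 0.05 the edgeR test called 0% of the 15706 genes, DESeq2 called 35, the likelihood ratio test 23 and limma-voom 0.

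How large a difference could have been missed is given by the 95% intervals of the fold changes. All 10 intervals lay within 1 log2 unit of 0, and the widest bound was 1.80-fold, for lower Trib3. The 4 genes of ER folding and degradation had 3 fold changes above 0 and 1 below, with a median of 0.075. The 6 genes of the ATF4 branch had 1 above 0 and 5 below, with a median of -0.13. Single samples moved both medians. That of ER folding and degradation ran from 0.024 without LPS + Tan replicate 4 (0.041 without LPS replicate 4 or LPS + Tan replicate 2) to 0.13 without LPS + Tan replicate 3. That of the ATF4 branch was -0.36 without LPS + Tan replicate 2, -0.23 without LPS replicate 1 and -0.059 to -0.089 without LPS replicate 4 or LPS + Tan replicate 1, 3 or 4.

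**Figure D1:**
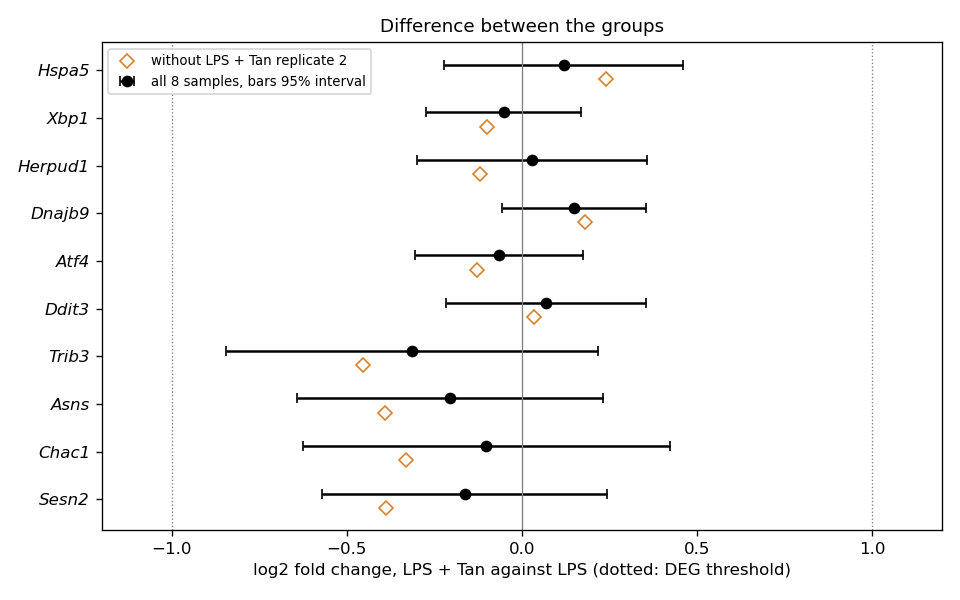
Log2 fold change of LPS + Tan against LPS for each gene (x axis, log2 units, dotted lines at the DEG threshold), with filled points and 95% intervals from all 8 samples and open diamonds for the fit without LPS + Tan replicate 2. All 10 intervals cross 0, and the diamonds of Trib3, Asns, Chac1 and Sesn2 lie further below 0 than the filled points.

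Hspa5 (chr2:34772090-34776529) encodes BiP, the main ER chaperone of the HSP70 family and an inhibitor of the sensors. It stood at 1298, 1097, 1144 and 1071 CPM in LPS replicates 1 to 4 and at 1478, 922, 1183 and 1426 CPM in LPS + Tan replicates 1 to 4. The highest and the lowest of all 8 samples were both LPS + Tan samples, and the groups overlapped. The means were 1152 ± 102 (SD, n = 4) and 1252 ± 255 CPM, and the log2 fold change was 0.12 ± 0.15 (SE), with a 95% interval of -0.22 to 0.46 (edgeR, adjusted p = 0.974). The annotated span of Hspa5 overlaps Rabepk, and strand use in the counting is not given in the sources used here.

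Xbp1 (chr11:5520641-5525993), the transcription factor spliced by IRE1, had 263, 275, 302 and 235 CPM in LPS and 258, 284, 237 and 258 CPM in LPS + Tan. It was among the steadiest of the 10, with its extremes both in the LPS group and a highest value 1.29 times the lowest. The log2 fold change was -0.052 ± 0.099, with a 95% interval of -0.27 to 0.17 (edgeR, adjusted p = 0.982).

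Herpud1 (chr8:94386429-94395371) encodes a membrane protein of the ER-associated degradation complex. Its levels were 177, 178, 191 and 165 CPM in LPS and 153, 236, 144 and 194 CPM in LPS + Tan. The LPS + Tan samples spanned the whole LPS range on both sides, and the coefficient of variation was 5.96% in LPS and 23.2% in LPS + Tan. The means of 178 ± 10.6 and 182 ± 42.1 CPM gave a log2 fold change of 0.030 ± 0.15 (edgeR, adjusted p = 0.997).

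Dnajb9 (chr12:44205897-44210068) encodes ERdj4, a J-domain cochaperone of BiP. It had 99.7, 111, 101 and 106 CPM in LPS and 128, 108, 102 and 125 CPM in LPS + Tan. LPS + Tan replicates 1 and 4 were above every LPS sample, and replicates 2 and 3 fell within the LPS range. The means were 104 ± 5.11 and 116 ± 12.6 CPM, and the log2 fold change of 0.15 ± 0.092 had the lowest p of the 10 genes, an unadjusted edgeR p of 0.136 (adjusted p = 0.928).

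Atf4 (chr15:80255184-80257545), the transcription factor of the integrated stress response, had 299, 323, 342 and 312 CPM in LPS and 261, 344, 279.5 and 336 CPM in LPS + Tan. LPS + Tan replicates 1 and 3 were below every LPS sample, and replicate 2 was the highest of the 8. The log2 fold change was -0.065 ± 0.11, with a 95% interval of -0.31 to 0.18 (edgeR, adjusted p = 0.982).

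Ddit3 (chr10:127290793-127296291) encodes CHOP, a transcription factor induced by ATF4 that is linked to cell death. It was at 41.9, 47.9, 37.3 and 47.0 CPM in LPS and at 35.0, 48.7, 48.7 and 50.1 CPM in LPS + Tan. LPS + Tan replicate 1 was the lowest of all samples, whereas the other 3 of its group were above every LPS sample. The log2 fold change was 0.069 ± 0.13 (edgeR, adjusted p = 0.982). Ddit3 overlaps Mbd6 and Mars1 in the annotation.

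Trib3 (chr2:152337425-152344060), a pseudokinase induced by ATF4 and CHOP that dampens ATF4 activity, had 21.1, 34.0, 20.7 and 25.6 CPM in LPS and 12.4, 26.0, 18.01 and 25.1 CPM in LPS + Tan. It varied most of the 10 genes, with a highest value 2.74 times the lowest. The means were 25.3 ± 6.18 and 20.4 ± 6.41 CPM, and the log2 fold change of -0.31 ± 0.24 had a 95% interval of -0.85 to 0.22 (edgeR, adjusted p = 0.938).

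Asns (chr6:7675165-7693209) encodes asparagine synthetase, a classical ATF4 target. It had 62.9, 69.6, 67.4 and 87.0 CPM in LPS and 47.1, 84.9, 46.4 and 70.5 CPM in LPS + Tan. LPS + Tan replicates 1 and 3 lay below every LPS sample and replicates 2 and 4 did not. The means were 71.7 ± 10.6 and 62.2 ± 18.8 CPM, with a log2 fold change of -0.21 ± 0.20 (edgeR, adjusted p = 0.961).

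Chac1 (chr2:119351242-119354326) encodes an enzyme that degrades glutathione. Its levels were 6.88, 11.4, 8.75 and 12.8 CPM in LPS and 7.75, 13.4, 7.88 and 8.16 CPM in LPS + Tan. In LPS + Tan, replicate 2 stood 1.69 times above the mean of the other 3, which lay close together within the lower part of the LPS range. The log2 fold change was -0.10 ± 0.24 (edgeR, adjusted p = 0.985).

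Sesn2 (chr4:132492804-132510456) encodes sestrin 2, a stress-induced inhibitor of mTORC1 signalling. It had 18.3, 18.4, 23.4 and 21.2 CPM in LPS and 16.5, 26.0, 15.9 and 14.2 CPM in LPS + Tan. LPS + Tan replicates 1, 3 and 4 were below every LPS sample and replicate 2 was above every one. The means were 20.3 ± 2.45 and 18.1 ± 5.33 CPM, and the log2 fold change was -0.16 ± 0.18 (edgeR, adjusted p = 0.967).

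**Figure D2:**
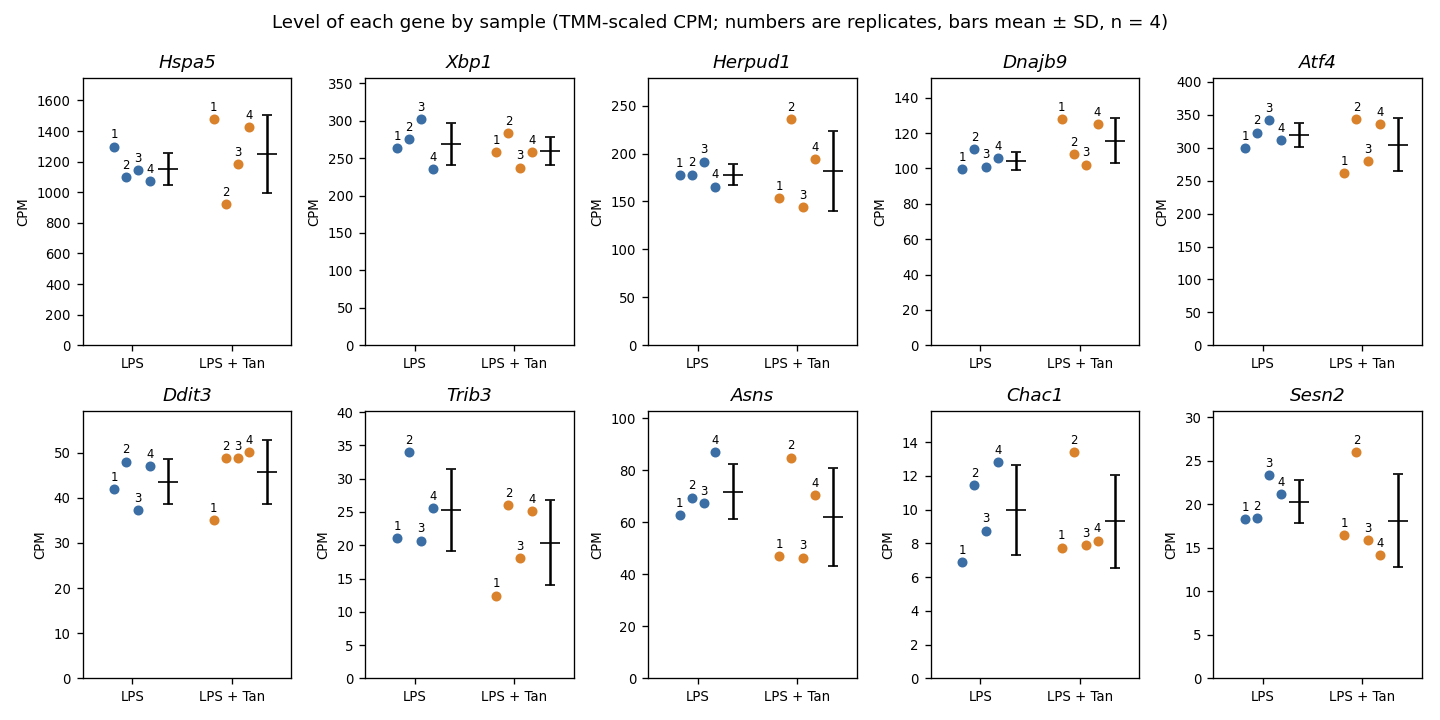
Level of each gene in TMM-scaled CPM (y axes, each from 0) in LPS (blue) and LPS + Tan (orange), with points numbered by replicate and bars for the mean ± SD (n = 4). The groups overlap in all 10 genes, and in 7 of them LPS + Tan replicate 2 is the highest point of its group.

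Levels were compared between genes per length, with the FPKM values the authors deposited. Hspa5 stood highest, with 460 ± 73.7 FPKM (SD, n = 8), followed by Atf4 with 180 ± 14.2 (range 155 to 199.5), Xbp1 with 117 ± 8.61 and Herpud1 with 88.1 ± 13.0. Dnajb9 (59.0 ± 6.25 FPKM) and Asns (28.2 ± 6.02) came next, then Ddit3 (17.5 ± 2.40), Trib3 (11.1 ± 3.08), Sesn2 (7.22 ± 1.45) and Chac1 (6.14 ± 1.61). The highest and lowest mean FPKM differed 74.9-fold. Neighbours in this order whose ranges over the 8 samples overlapped were Xbp1 and Herpud1, Ddit3 and Trib3, Trib3 and Sesn2, and Sesn2 and Chac1. Trib3 was above Sesn2 in 7 of 8 samples and Sesn2 above Chac1 in 6 of 8. The ranges of all other neighbours were apart.

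In the LPS + Tan group, replicate 2 differed from the rest for most of the genes. It was above the other 3 of its group in 7 of the 10 genes (Xbp1, Herpud1, Atf4, Trib3, Asns, Chac1 and Sesn2), by 1.13 times their mean for Xbp1 to 1.69 times for Chac1. In Hspa5 it was below all 3, at 0.677 times their mean. It was highest of the 4 in 26.9% of all tested genes and lowest in 29.3%. All 6 genes of the ATF4 branch were above their 8-sample mean in replicate 2, by a median of 0.31 in log2 CPM, and all 6 were below it in LPS + Tan replicate 1, by a median of -0.30. LPS + Tan replicate 3 had 1 of the 6 above the mean, with a median of -0.25. In the LPS group, all 6 were above the mean in replicate 4 (median 0.19) and all 6 below it in replicate 1 (median -0.060).

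**Figure D3:**
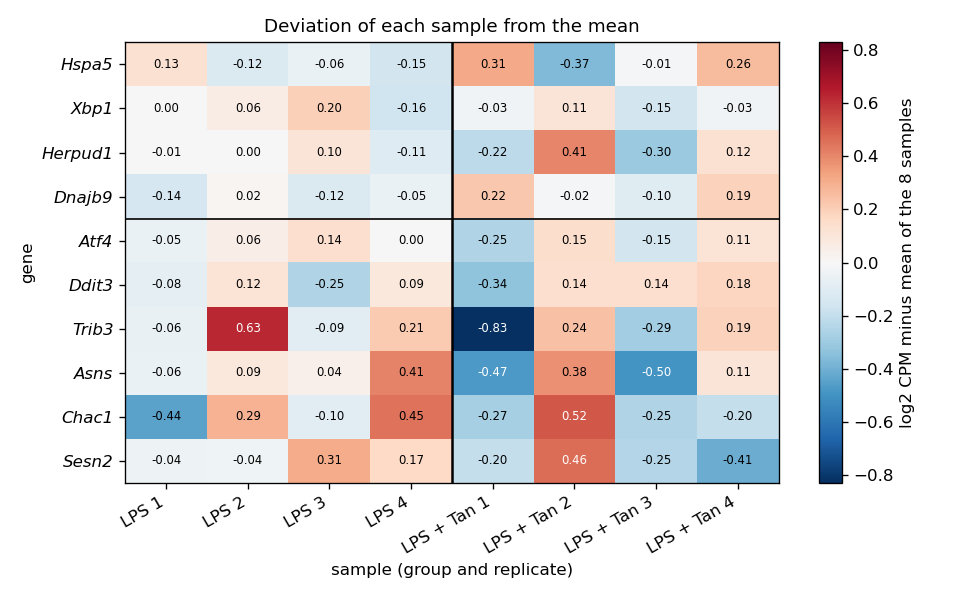
Deviation of each sample from the 8-sample mean of each gene in log2 CPM (colour and printed value), with genes as rows, samples as columns and lines between the groups and between ER folding and degradation (upper 4) and the ATF4 branch (lower 6). LPS + Tan replicate 2 and LPS replicate 4 are above the mean in all 6 lower rows, and LPS + Tan replicate 1 and LPS replicate 1 are below it in all 6.

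Without LPS + Tan replicate 2, 2 of the 10 genes were called at an unadjusted p below 0.05, where 10.2% of all genes tested in those 7 samples were. Asns then had a log2 fold change of -0.39 ± 0.17 (edgeR, unadjusted p = 0.0442, adjusted p = 0.474). Sesn2 had -0.39 ± 0.12 (edgeR, unadjusted p = 0.00971, adjusted p = 0.322), with 14.2 to 16.5 CPM in the 3 LPS + Tan samples and 18.3 to 23.4 CPM in LPS. In the same fit Hspa5 was at 0.24 ± 0.13, Trib3 at -0.45 ± 0.25 and Chac1 at -0.33 ± 0.20, none of them called. The split by direction became 3 above 0 and 7 below, since Herpud1 went from 0.030 to -0.12. Each of the other 7 samples left out in turn gave 0 calls among the 10, in fits that called 3.02% to 9.34% of all genes. Replicate 2 was singled out by these same values, so this fit is a description and no independent test.

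Some lists of marker genes put LPS + Tan replicate 2 outside the range of the other 3 samples of its group, and others did not. For comparison, it was highest of its group in 26.9% of all tested genes and lowest in 29.3%. It was inside the range for B cell, T cell, macrophage, alveolar type 1 and 2, club, endothelial and smooth muscle cell markers. For alveolar type 2 markers, LPS + Tan replicates 3 (7461 CPM) and 4 (12185 CPM) were the extremes of the group. The summed CPM of 6 neutrophil markers was 3160 in LPS + Tan replicate 2 and 4453 to 4857 in the other 3 of its group, with 3461 to 4944 in LPS. The summed CPM of 9 genes that respond to tissue handling, such as Fos and Hspa1a, was 930.5 in it and 664 to 763 in the other 3, with 770 to 858 in LPS, and 5 of the 9 passed an unadjusted p below 0.05 in edgeR between the groups (3 higher, 2 lower), as 5.12% of all tested genes did. For plasma cell markers the sum was 140 in it, against 108 to 120.1 in the other 3 and 106 to 139.7 in LPS. The 6 markers of alveolar type 2 cells, surfactant genes among them, were abundant in every sample, the labelled tissue being lung, with 8968 CPM in it, 7461 to 12185 CPM in the other 3 and 7518 to 11239.7 CPM in LPS. Cardiac muscle markers were at 105 CPM in it and 112 to 214 CPM in the other 3, and fibroblast markers at 2180.2 and 1744 to 2024 CPM. Mesothelial markers, at 57.4 against 58.9 to 86.1 CPM, and erythroid markers, at 2133 against 1315 to 2079.7 CPM, were just outside the range. The summed ranges overlapped between the groups for every marker list examined and no marker in the tables was at 0 in all samples. The part of these differences in the values of the 10 genes was not tested.

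Across samples, the genes of the ATF4 branch had mostly positive correlations with each other. Over the 8 samples and 45 pairs, Pearson r of log2 CPM was positive in 27 pairs. Within the ATF4 branch 14 of 15 pairs had a positive r, with a median of 0.61. Within ER folding and degradation 2 of 6 pairs did, with a median of -0.067, and between the 2 sets 11 of 24 pairs did, with a median of -0.096. No test of these shares was made, since pairs share genes and samples. An unadjusted exact permutation p below 0.05 was reached by 9 pairs, and 0 pairs passed after Benjamini-Hochberg adjustment over the 45, where the smallest adjusted p was 0.186 for r and 0.1004 for rho.

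Herpud1 and Atf4 had the highest r, 0.843 (exact permutation p = 0.00717), and a Spearman rho of 0.929 (exact permutation p = 0.00223). The relation remained at r = 0.906 without the 2 samples farthest from the median Herpud1 level, and at 0.878 in deviations from the group means. Trib3 and Asns had r = 0.768 (exact permutation p = 0.0248) and rho = 0.786 (exact permutation p = 0.0279). Their r was 0.930 without the 2 samples farthest in Trib3 and 0.724 in deviations from the group means. Asns and Chac1 had r = 0.758 (exact permutation p = 0.0354) and rho = 0.810 (exact permutation p = 0.0218). Their r was 0.876 without the 2 samples farthest in Asns and 0.768 in deviations from the group means. Hspa5 went the other way. Its r was -0.826 with Chac1 (exact permutation p = 0.0114, rho = -0.881 with an exact permutation p of 0.00724) and -0.817 with Sesn2 (exact permutation p = 0.0142, rho = -0.810 with an exact permutation p of 0.0218). Without the 2 samples farthest in Hspa5 these were -0.745 and -0.711, and in deviations from the group means -0.823 and -0.808. Atf4 and Asns had r = 0.809 (exact permutation p = 0.0174) and rho = 0.667 (exact permutation p = 0.0831). Their r was 0.230 without the 2 samples farthest in Atf4 and 0.793 in deviations from the group means. For Atf4 and Trib3, r = 0.767 (exact permutation p = 0.0226, rho = 0.619, exact permutation p = 0.115) went to 0.076 and 0.748 in the same order. For Ddit3 and Trib3, r = 0.709 (exact permutation p = 0.0426, rho = 0.405, exact permutation p = 0.327) went to 0.240 without the 2 farthest in Ddit3, and to 0.873 in deviations. For Herpud1 and Asns, r = 0.726 (exact permutation p = 0.0398, rho = 0.619, exact permutation p = 0.115) went to 0.430 without the 2 farthest in Herpud1, and to 0.790 in deviations. The 2 samples were chosen by the first gene of each pair. Leaving out those farthest in the second gene was not tried, so the pairs cannot be ranked by their dependence on single samples.

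Within the groups, of 4 samples each and so without a test, r was below 0.5 in size, or of the opposite sign, in LPS for 5 of the 9 pairs. The r of Atf4 and Asns was -0.033 in LPS and 0.957 in LPS + Tan, that of Atf4 and Trib3 was 0.023 and 0.969, that of Trib3 and Asns 0.294 and 0.869, and that of Herpud1 and Asns -0.720 and 0.990. Hspa5 and Sesn2 had -0.381 in LPS and -0.884 in LPS + Tan. The r was more alike in LPS and LPS + Tan for Herpud1 and Atf4 (0.695 and 0.908), Asns and Chac1 (0.852 and 0.812), Ddit3 and Trib3 (0.835 and 0.890) and Hspa5 and Chac1 (-0.960 and -0.887). Whether r differed between the groups was not tested.

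**Figure D4:**
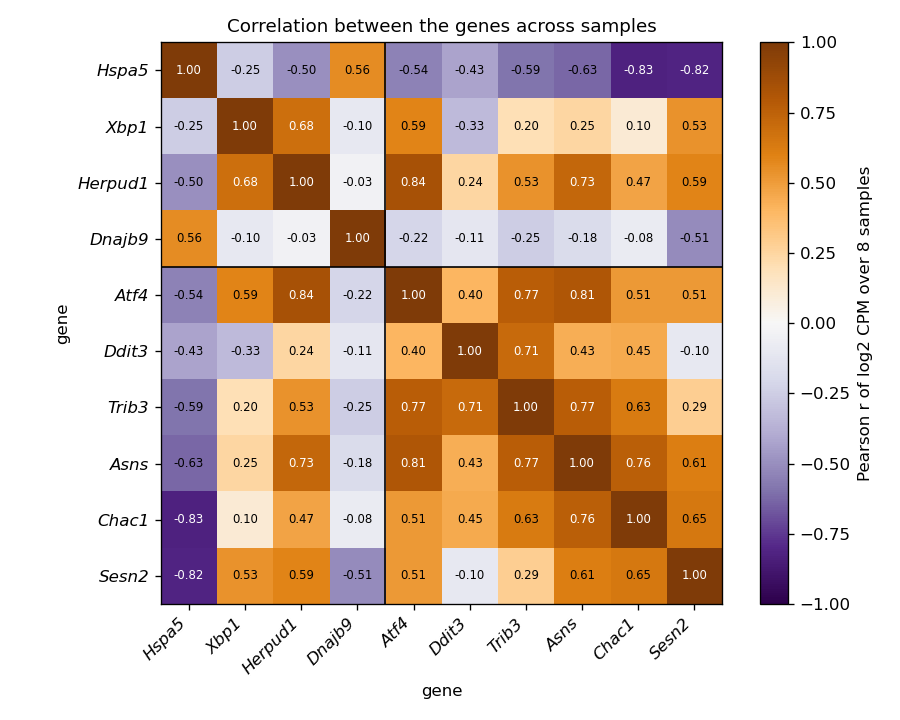
Pearson r of log2 CPM between each pair of genes over the 8 samples (colour and printed value), with lines between ER folding and degradation (first 4) and the ATF4 branch (last 6). The lower right block is positive in 14 of 15 pairs, and the row of Hspa5 is negative for all 6 ATF4 branch genes.

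The wider pathway was followed in 6 lists of other genes, of which 117 were tested. At an unadjusted p below 0.05 edgeR called 2 of the 117, both lower in LPS + Tan, against 5.12% of all tested genes, and 0 at an adjusted p below 0.05. Fold changes were above 0 in 34 and below 0 in 83, with a median of -0.062, whereas 48.2% of all tested genes were below 0. The count of calls moved with the sample left out, and so did the share of all genes called in the same fit. It was 24 without LPS + Tan replicate 2, where 10.2% of all genes were called, and 7 without LPS + Tan replicate 4, where 9.34% were. It was 0 without LPS replicate 3 (3.69% of all genes) or LPS + Tan replicate 3 (3.72%), and 1 without each of the other 4 samples (3.02% to 5.64%).

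Of 17 sensors, eIF2alpha kinases, phosphatase subunits and eIF2B subunits, 0 were called, and 5 were above 0 and 12 below (median -0.052). Eif2ak2, the kinase PKR, had 119 ± 7.05 CPM in LPS and 101 ± 15.0 in LPS + Tan (log2 fold change -0.24 ± 0.11, edgeR, unadjusted p = 0.0552). Ppp1r15a, the stress-induced phosphatase subunit GADD34, was at -0.22 ± 0.13, and Eif2ak3, the gene of PERK, at 0.089 ± 0.094. The eIF2B subunit Eif2b4 was at 0.088 ± 0.091. Without LPS + Tan replicate 2, where 10.2% of all genes were called, 2 of the 17 were called lower. They were Ppp1r15a (-0.35, edgeR, unadjusted p = 0.00662) and, named after its values were seen, the sensor gene Atf6 (-0.34, edgeR, unadjusted p = 0.0215), and their adjusted p-values were 0.293 and 0.392. Without LPS + Tan replicate 4, where 9.34% of all genes were called, 1 of the 17 was called, Eif2ak2 (-0.33), and the median was -0.020. Eif2ak2 was at -0.16 and not called without LPS + Tan replicate 2. The median of the list was also nearer 0 with library totals as the scaling (-0.0077) and on log2 FPKM (-0.0026 and -0.0023). Of 18 genes of ER-associated degradation 9 were above 0 and 9 below (median 0.0058), with 0 called. The median of this list changed sign with the sample left out (-0.025 to 0.015). The ubiquitin ligase Syvn1 (HRD1) was at 0.12 ± 0.071 and the mannosidase-like Edem1 at 0.12 ± 0.13, whereas Edem2 was at -0.13 ± 0.092 and the conjugating enzyme Ube2g2 at -0.11 ± 0.079. Of 18 genes of translocation into the ER and transport to the Golgi 3 were above 0 and 15 below (median -0.064), with 0 called. The translocon subunit Sec61g was at -0.27 ± 0.13 (edgeR, unadjusted p = 0.0604) and Ssr3 at -0.14 ± 0.085, and the KDEL receptor Kdelr2 was at 0.077 ± 0.092 and the signal peptidase subunit Spcs3 at 0.043 ± 0.10. Without LPS + Tan replicate 4, 2 of these 18 were called lower, Sec61g (-0.36, but -0.15 and not called without LPS + Tan replicate 2) and, named after its values were seen, the signal peptidase subunit Sec11c (-0.26), with a median of -0.12. The median was also -0.12 without LPS + Tan replicate 1, -0.043 without LPS replicate 3, and -0.019 to -0.027 with library totals or on log2 FPKM.

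Of 19 ER chaperones and folding enzymes 11 were above 0 and 8 below (median 0.018), with 0 called. Sdf2l1, a BiP-associated protein, was at 58.6, 43.2, 40.0 and 37.1 CPM in LPS and at 75.1, 28.4, 54.0 and 71.2 CPM in LPS + Tan, a log2 fold change of 0.35 ± 0.27. It was lowest of all 8 in LPS + Tan replicate 2 and highest in LPS + Tan replicate 1, as Hspa5 was. Sil1, the nucleotide exchange factor of BiP, was at 0.13 ± 0.094, the disulfide reductase Dnajc10 at -0.17 ± 0.086 and the oxidase Ero1a at -0.092 ± 0.14. LPS + Tan replicate 2 was the lowest of its group in 18 of the 19 genes, with a median deviation of -0.36 in log2 CPM from the 8-sample mean. Without it 4 were called, all higher in LPS + Tan, in a fit that called 10.2% of all genes. They were Sdf2l1 (0.58), Manf (0.35), Creld2 (0.35) and Ero1b (0.27), named after their values were seen. With all samples Manf was at 0.20, Creld2 at 0.17 and Ero1b at 0.14. Without LPS + Tan replicate 4, in a fit that called 9.34% of all genes, 1 was called lower, Dnajc10 (-0.23). The median of this list changed sign with the sample left out, from 0.13 without LPS + Tan replicate 2 to -0.057 without LPS + Tan replicate 1.

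The largest list, 29 ATF4 targets of amino acid synthesis, amino acid transport and tRNA charging, had 28 fold changes below 0 and 1 above, that of the cystine transporter Slc7a11 (0.11 ± 0.28), which turned to -0.19 without LPS + Tan replicate 2. The median was -0.14, and 1 gene was called. This was Aldh18a1, which makes the proline precursor, with 22.9, 21.4, 26.5 and 23.6 CPM in LPS and 16.6, 24.1, 18.3 and 15.6 CPM in LPS + Tan (log2 fold change -0.34 ± 0.14, edgeR, unadjusted p = 0.0350, adjusted p = 0.924). Mthfd2, a mitochondrial folate enzyme, had 59.6, 71.3, 60.8 and 67.9 CPM in LPS and 44.6, 71.6, 42.1 and 50.1 CPM in LPS + Tan (-0.32 ± 0.16, edgeR, unadjusted p = 0.0723). In both genes LPS + Tan replicates 1, 3 and 4 were below every LPS sample and replicate 2 was not. Across the list replicate 2 was the highest of its group in 25 of 29 genes, with a median deviation of 0.21, where the other 3 were at -0.18, -0.18 and -0.17. Without it 16 of the 29 were called, all lower, in a fit that called 10.2% of all genes. Among them were Slc7a5 (-0.54) and Slc7a1 (-0.52), named after their values were seen. With all samples these 2 genes were at -0.23 and -0.25 and not called. The smallest edgeR adjusted p among the 16 was 0.191. With any other sample left out, 0 or 1 of the 29 were called. The 1 called without LPS + Tan replicate 4 was the tryptophanyl-tRNA synthetase gene Wars, named after its values were seen, at -1.04 and the lowest adjusted p of the list in any setting (edgeR, adjusted p = 0.0782). With library totals or on log2 FPKM, 0 of the 29 were called, Aldh18a1 included, and the median was -0.097 to -0.10. The number below 0 stayed between 26 and 28 of the list over all scalings, tests, filters and samples left out. The genes share these samples and vary together, so the count is no measure of support.

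Of 16 partners of ATF4 and CHOP, stress effectors and secreted factors, 5 were above 0 and 11 below (median -0.070), and 1 was called. This was Gadd45a, a growth arrest gene, with 28.1 ± 5.18 CPM in LPS and 20.1 ± 5.21 in LPS + Tan (log2 fold change -0.49 ± 0.20, edgeR, unadjusted p = 0.0352, adjusted p = 0.924). Ddit4, the mTORC1 inhibitor REDD1, had 93.3, 104, 121 and 146 CPM in LPS and 34.4, 130.4, 43.3 and 79.1 CPM in LPS + Tan, a log2 fold change of -0.69 ± 0.36 (edgeR, unadjusted p = 0.0837) and of -1.15 ± 0.27 without replicate 2 (edgeR, unadjusted p = 0.00208, adjusted p = 0.254). As in Sesn2, LPS + Tan replicates 1, 3 and 4 were below every LPS sample. That fit called 2 of the 16, both lower, Ddit4 and Gadd45a (-0.57), and 10.2% of all genes. The median of the list ran from -0.18 in it to -0.0089 without LPS + Tan replicate 1, where 1 gene was called, Bbc3, in the other direction. Without LPS + Tan replicate 4 the median was -0.14, and Gadd45a (-0.61) and, named after its values were seen, the transcription factor gene Atf3 (-0.84) were called lower. No gene of the list was called without LPS replicate 2, LPS replicate 3 or LPS + Tan replicate 3. The cell death genes Bbc3 (0.24 ± 0.12) and Tnfrsf10b (0.17 ± 0.15) were not called.

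**Figure D5:**
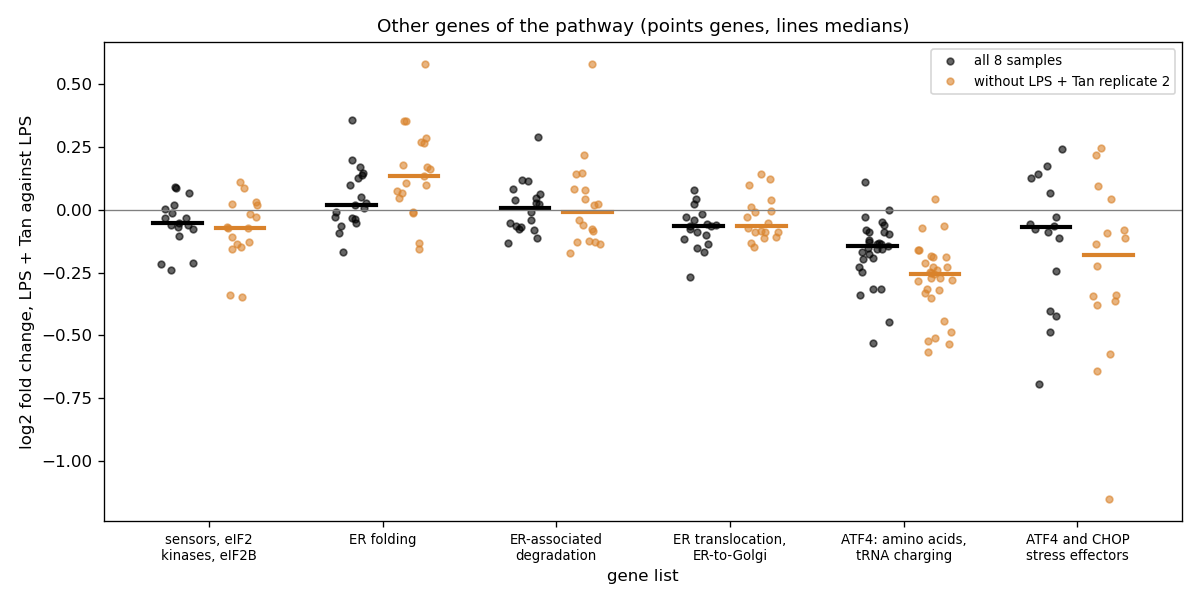
Log2 fold change of LPS + Tan against LPS (y axis) for the tested genes of 6 other lists of the pathway (x axis), from all 8 samples (black) and without LPS + Tan replicate 2 (orange), with points for genes and lines for medians. The median of the amino acid and tRNA charging list lies at -0.14 and at -0.26, and that of the ER folding list at 0.018 and at 0.13.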

How the data were processed

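RNA-seq of 4 LPS and 4 LPS + Tan lung samples was used, grouped by the labels. The authors deposited raw read counts per gene and FPKM values made from those counts, in 2 tables of 24584 genes. Every sample column was matched to a sample by its name, with 0 unmatched. The submitters' processing notes name GRCm38 and mm10, while the software for alignment and counting, the annotation and the strand setting were not given in the sources used here. Extraction and library kits differ between the methods and the labels.

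Counts were tested in edgeR 4.0.16 (R 4.3.3) with filterByExpr, TMM scaling and the quasi-likelihood test, without covariates, and p was adjusted over all tested genes. Standard errors of log2 fold changes were taken as |log2 fold change| over the root of F. Pairs of samples within a group differed by 7.84 to 23.0 times sampling noise, so none was the same library sequenced again. A second library made from the same lung would not be recognised by this ratio. The scripts were tested on simulated counts. Motifs were searched in RefSeq windows of GRCm38.p6, with Python 3.11.15, and correlations used all 40320 pairings of samples (scipy 1.17.1).

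The genes and lists were chosen with earlier results of these data known. All 10 genes are named, and from each list the 2 with the lowest edgeR p in each direction. Of 194 list entries 192 were found, 1 by an older name, and 3 of those found, Adm2, Fgf21 and a plasma cell marker, were too low to test. Alternatives were DESeq2 1.42.0, limma-voom and limma-trend on log2(FPKM + 1) and log2(FPKM + 0.1) (limma 3.58.1), the likelihood ratio test, other scalings (RLE, upper quartile, library totals), no filter, 1 CPM in 4 samples, a block for replicate number, and fits that leave out 1 sample each.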

Additional observations from a re-analysis of the deposited data

Results flagged for a closer look

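In 2 of 20 groups of 4 samples, 1 sample lay far from the others, with a gap to its nearest neighbour that took up most of the range of the group in log2 CPM. Chance gives about 1 of 20 (5%). Ddit3 was at 35.0 CPM in LPS + Tan replicate 1 and at 48.7 to 50.1 CPM in the other 3, a gap of 0.923 of the range. Chac1 was at 13.4 CPM in LPS + Tan replicate 2 and at 7.75 to 8.16 CPM in the other 3, a gap of 0.905 of the range. These are different samples of the same group. The reason for either value was not tested.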

How the results depend on the processing

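Each of the 10 fold changes was recomputed under 11 other settings and 8 fits with 1 sample left out, 190 values in all. No scaling, filter or test changed the direction of any of the 10 genes, and 6 values changed sign, all with 1 sample left out. These were Xbp1 without LPS replicate 3 (0.0087), Herpud1 without LPS replicate 4 (-0.0037), LPS + Tan replicate 2 (-0.12) or LPS + Tan replicate 4 (-0.0027), Atf4 without LPS + Tan replicate 1 (0.00071), and Chac1 without LPS replicate 4 (0.042). With 1 sample left out, Xbp1 ranged from -0.11 to 0.0087, Herpud1 from -0.12 to 0.12, Atf4 from -0.13 to 0.00071 and Chac1 from -0.33 to 0.042. The other 6 genes did not change sign under these settings, but their values moved, from 0.0014 to 0.17 for Ddit3, 0.028 to 0.24 for Hspa5, 0.096 to 0.20 for Dnajb9, -0.45 to -0.14 for Trib3, -0.39 to -0.089 for Asns and -0.39 to -0.063 for Sesn2. The number of the 10 genes called at an unadjusted p below 0.05 was 0 to 2 with a sample left out and 1 with the replicate block (Trib3, edgeR, unadjusted p = 0.0362), and 0 under every other setting. The smallest adjusted p of any of the 10 was 0.322, in edgeR without LPS + Tan replicate 2. Of the 117 other pathway genes, 2 were called with all samples (5.12% of all genes), 7 with the replicate block (5.26%), 5 with limma-voom (5.16%) and with no filter (4.88%), 4 with limma on log2 FPKM at a pseudocount of 1 (5.86%) or 0.1 (5.80%), and 0 to 24 with a sample left out (3.02% to 10.2%). Which step of each setting moved these counts was not tested. The r of deviations from the group means was -0.15 to 0.12 for same-numbered samples and -0.21 to 0.22 for differently numbered ones. The labels do not say whether the numbers pair samples across the groups, and these few values cannot decide it. The median log2 fold change of all genes in a fit lay between -0.0061 and 0.049 under all settings.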
